A study of Mus musculus with 165 samples.

Results

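Kruppel-like factors are zinc finger transcription factors, and 9 of their genes were followed here through 2 differentiation courses of a mouse myeloid cell line: *Klf2*, *Klf3*, *Klf4*, *Klf6*, *Klf7*, *Klf9*, *Klf10*, *Klf11* and *Klf13*. They were taken by gene symbol from the 36255 genes of the table of normalized counts, and all 9 were in it. A normalized count of at least 5 in 1 library or more was required for testing, and 8 of the 9 passed. *Klf4* did not pass.

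The PUER line consists of Spi1-/- blood progenitors, which lack PU.1 and depend on IL3, and carries PU.1 joined to the hormone-binding part of the estrogen receptor (PUER). The joined protein is inactive until 4-hydroxy-tamoxifen (OHT) is added. Undifferentiated cells in IL3 without OHT (3 libraries) were the start of both courses. For macrophage differentiation, 200 nM OHT was added to cells kept in IL3 (IL3-OHT, 81 libraries). For neutrophil differentiation, GCSF replaced IL3 for 48 h (GCSF 0h, 3 libraries, without OHT) and 100 nM OHT then followed in GCSF (GCSF-OHT, 78 libraries). The OHT dose therefore differed between the cytokines and cannot be told apart from them. No library without OHT was taken after 0h, so in each change after OHT, OHT and the time in culture cannot be told apart. Each course had 27 time points after OHT, the first at 1h and the last at 168h, with 3 libraries in 53 of the 56 groups and 2 in GCSF-OHT 96h, 112h and 152h. All cells come from 1 line, each time point had its own culture plate, and the plate and the time cannot be told apart. Cells were detached with trypsin at time points after 24h, and part of the medium was renewed with fresh OHT at 40h, 88h and 136h. The authors set aside IL3-OHT 96h and 144h as outliers, so these groups enter only where they are named.

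The proteins of this family share 3 zinc fingers at the carboxyl end and bind GC-rich sequences and CACCC boxes. Their amino-terminal parts differ and sort them by partner: KLF2, KLF4, KLF6 and KLF7 are mostly activators that recruit acetyltransferases, KLF3 recruits the corepressor CtBP, and KLF9, KLF10, KLF11 and KLF13 recruit the corepressor SIN3A. In myeloid cells KLF4 is known for its part in monocyte differentiation, KLF2 for restraining inflammatory activation, and KLF6 for inflammatory responses of macrophages. Several of the genes respond within an hour to signals such as serum, hormones or cytokines.

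Promoter sequences are shown for *Klf2*, *Klf6* and *Klf9*, the genes with the largest ratios of highest to lowest mean in one of the courses. Each run comes from RefSeq (GRCm38.p6) and ends at the base before the start of the gene in GENCODE M21, and capitals mark the matches described after it.

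Klf2, chr8:72318812-72319032, plus strand: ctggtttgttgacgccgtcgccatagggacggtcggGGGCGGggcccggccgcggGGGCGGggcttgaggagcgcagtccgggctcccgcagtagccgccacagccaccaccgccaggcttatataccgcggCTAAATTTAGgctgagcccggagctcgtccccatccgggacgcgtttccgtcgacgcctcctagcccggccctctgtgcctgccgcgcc

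Klf6, chr13:5861239-5861481, plus strand: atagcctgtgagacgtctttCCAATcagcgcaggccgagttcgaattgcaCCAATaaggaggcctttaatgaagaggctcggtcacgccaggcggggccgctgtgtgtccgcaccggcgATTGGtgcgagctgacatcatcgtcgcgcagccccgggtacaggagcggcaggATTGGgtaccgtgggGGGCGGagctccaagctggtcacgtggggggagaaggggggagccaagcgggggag

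Klf9, chr19:23140976-23141225, plus strand: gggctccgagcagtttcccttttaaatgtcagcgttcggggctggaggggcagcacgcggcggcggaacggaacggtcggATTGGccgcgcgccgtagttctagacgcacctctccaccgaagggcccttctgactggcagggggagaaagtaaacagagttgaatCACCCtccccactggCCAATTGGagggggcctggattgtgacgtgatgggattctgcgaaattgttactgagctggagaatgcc

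Capitals mark the KLF box (CACCC or GGGTG), the GC box (GGGCGG or CCGCCC), the CCAAT box (CCAAT or ATTGG) and the palindromic MEF2-type element, each searched on both strands. The MEF2-type element was added to the search after the *Klf2* sequence had been read. The 221 bases of *Klf2* hold 2 GC boxes and 1 MEF2-type element. The 243 bases of *Klf6* hold 4 CCAAT boxes, 1 GC box and no KLF box. The 250 bases of *Klf9* hold 3 CCAAT boxes, 2 of which overlap as CCAATTGG, and 1 KLF box.

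Windows of 250 bases before the RefSeq start were found for 8 of the 9 genes (all but *Klf10*). A GC box was in 7 of these 8, against 32.7% of all 32851 promoter windows, a KLF box in 5 of 8 against 52.0%, and a CCAAT box in 4 of 8 against 33.8%. The MEF2-type element was in 1 of 8, against 3.20% of all windows. The letters GAGGAA, a core of PU.1 sites, were in 0 of 8 windows against 23.3% of all, and the cAMP response element TGACGTCA in 0 of 8 against 1.55%. These counts describe letters in a fixed window and not bound sites.

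The libraries held 14600246 to 33147945 reads on genes (median 21960878), and 3 reads, taken as the smallest number told from 0, were worth a normalized count of 1.96 to 5.51 (counting error only). *Spi1*, measured as its transcript whether or not the fusion protein is active, ran from 4482 to 13387. Markers of the labelled cells were mixed. Neutrophil markers in GCSF-OHT 168h were *S100a8* with a mean of 190483, *Lcn2* 125149, *Elane* 66130 and *Ngp* 41096, but *Camp* 3148 and *Ltf* 56.5. *Elane* was higher in undifferentiated cells (108129), *Camp* in GCSF 0h (6970) and *Ltf* in IL3-OHT 168h (210.6). In IL3-OHT 168h *Lcn2* averaged 50578. Of the macrophage markers in IL3-OHT 168h, *Itgam* averaged 7612, *Cd68* 3471 and *Adgre1* 334, but *Mrc1* 16.4 and *Csf1r* 4.91. Of the progenitor markers in undifferentiated cells, *Csf2rb* averaged 14412, *Kit* 4053 and *Mpo* 3775, but *Flt3* 32.7, *Ptprc* 3.23 and *Cd34* 2.74. Of markers of other cell types, the basophil gene *Mcpt8* was at 185.8 in undifferentiated cells and 238.8 in GCSF 0h, the megakaryocyte gene *Itga2b* at 348 and 72.8, *Epor* at 18.6 and 6.67, and *Cd79a* at 14.1 and 4.87. *Hba-a1*, *Cpa3*, *Fcer1a* and *Cd3e* had group means under 1 normalized count in undifferentiated cells, GCSF 0h and both 168h groups. In bulk RNA, fewer cells of a type and less RNA per cell cannot be told apart.

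*Klf4*, the family member most tied to monocytes, was not detectable at this depth. It had at most 2 reads in each library, below the 3-read floor, so no fold change is given.

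Per kilobase of exon (all annotated exons of a gene merged), the other 8 genes spanned about an order of magnitude. The length of the transcripts expressed was not determined, so the order of the genes depends on the annotation. In undifferentiated cells the order of the levels was *Klf6* (1853 ± 84.3 normalized counts per kilobase, SD, n = 3), *Klf10* (1391 ± 9.98), *Klf9* (1171 ± 89.5), *Klf13* (693 ± 15.2), *Klf2* (602 ± 55.9), *Klf3* (313 ± 2.596), *Klf7* (287 ± 16.8) and *Klf11* (208.8 ± 10.9). *Klf3* and *Klf7* lay within about 2 SD of each other, and so did *Klf2* and *Klf13*. In IL3-OHT 168h *Klf2* had the highest value at 918 ± 50.9, above *Klf6* at 809.5 ± 50.7. In GCSF-OHT 168h the highest were *Klf6* (1088 ± 15.2), *Klf13* (956 ± 43.3) and *Klf2* (914 ± 26.9), and the last pair differed by about 1 SD.

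**Figure D1:**
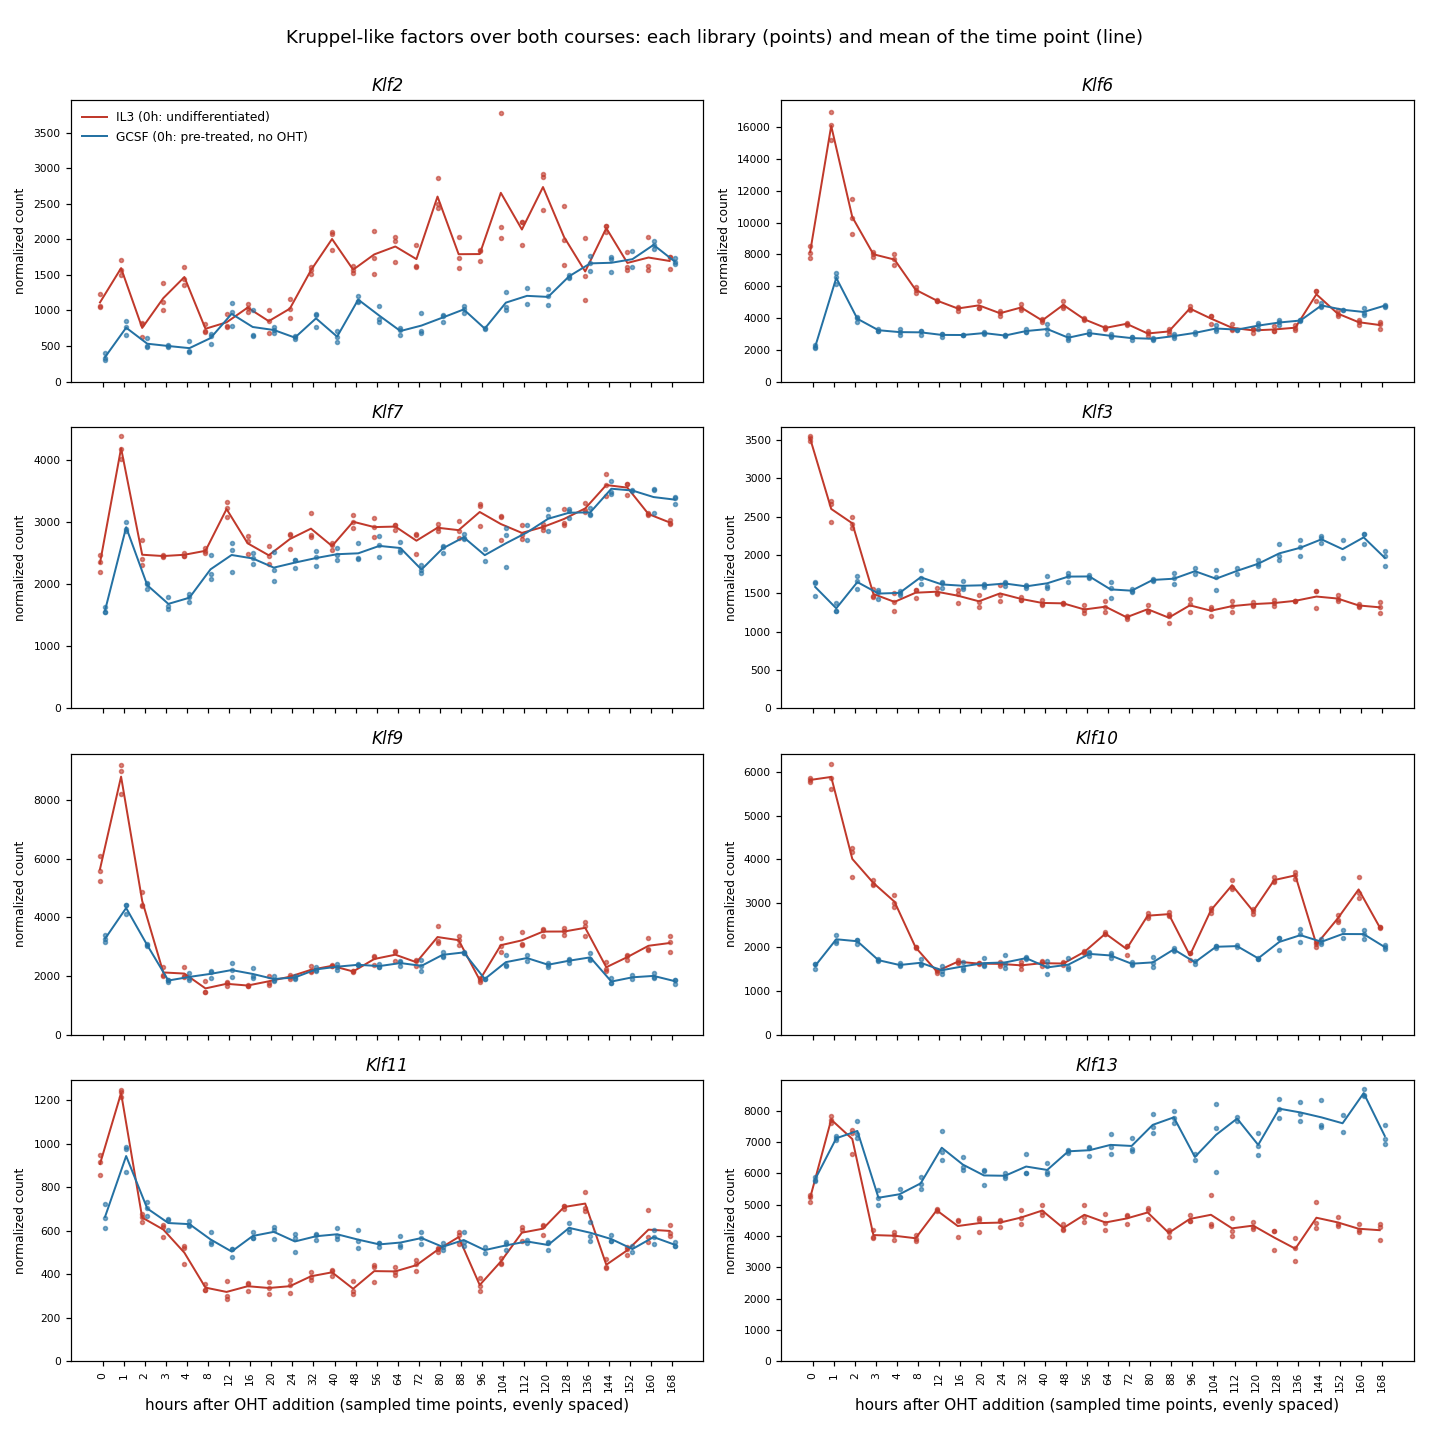
Normalized count (vertical axis) of the 8 detected Kruppel-like factor genes against hours after OHT (sampled time points, evenly spaced), with IL3 in red and GCSF in blue, points for libraries and lines for the mean of each time point. *Klf6* reached 16083 at 1h in IL3, *Klf3* and *Klf10* start far higher in undifferentiated cells than in GCSF 0h, and the line of *Klf13* is higher in GCSF from 2h onward.

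The first comparison asked how the change from IL3 to GCSF affects the family before PU.1 is active. The presence of GCSF, the loss of IL3 and the 48 h of culture cannot be told apart in it. In GCSF 0h, 5 of the 8 genes were lower than in undifferentiated cells and 0 were higher, where 20.7% of all tested genes were lower and 13.0% higher (limma, adjusted p under 0.05 and a log2 fold change beyond 0.58). The median log2 fold change of the 8 was -0.97, against -0.09 over all genes. *Klf6* fell by 1.90 on the log2 scale (SE 0.05, limma adjusted p = 5.97e-61), *Klf10* by 1.89 (SE 0.05), *Klf2* by 1.70 (SE 0.15), *Klf3* by 1.16 (SE 0.05) and *Klf9* by 0.79 (SE 0.07). *Klf7* (-0.57) and *Klf11* (-0.45) had adjusted p-values under the threshold but changed by less than the fold required, and *Klf13* differed by 0.16. The comparisons of IL3-OHT below use the same undifferentiated libraries as this one.

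One hour of OHT was followed by a pulse in both cytokines. In IL3, 3 of the 8 genes were called higher at 1h (*Klf6*, *Klf7* and *Klf9*) and 0 lower, against 2.81% and 1.61% of all genes. In GCSF, 3 were called higher (*Klf2*, *Klf6* and *Klf7*) and 0 lower, against 4.01% and 2.03%. The median log2 fold change of the 8 was 0.54 in IL3 and 0.49 in GCSF, against 0.03 and 0.00 over all genes. *Klf3* differed by -0.44 in IL3 and -0.28 in GCSF, the only negative values among the 8 at 1h.

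**Figure D2:**
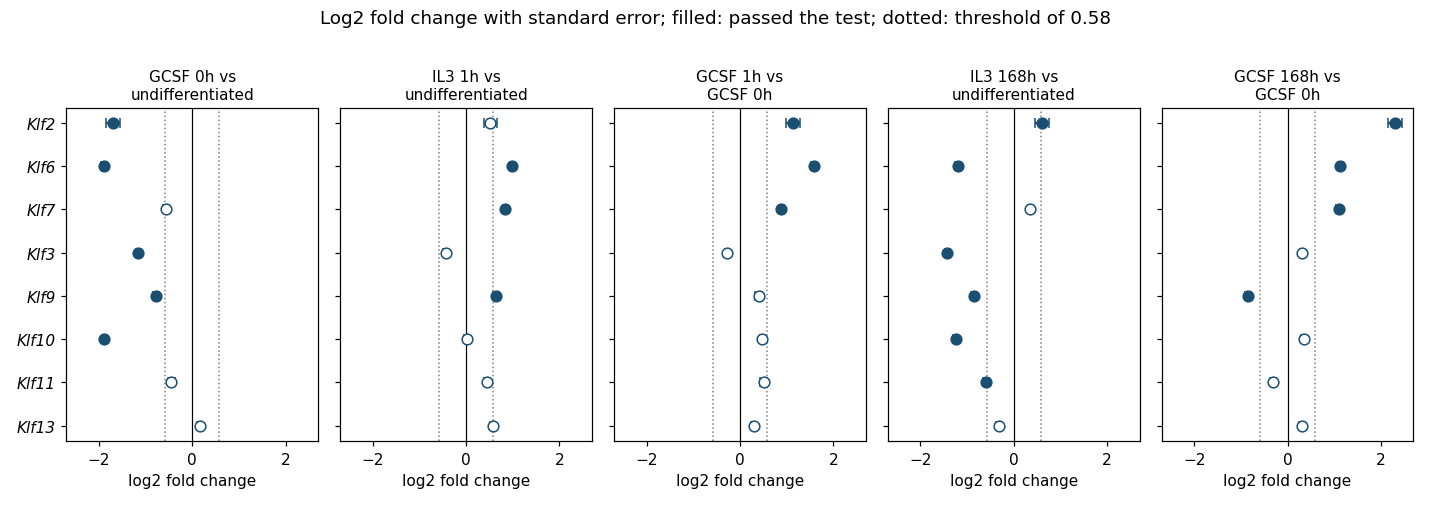
Log2 fold change (horizontal axis, log2(normalized count + 1) scale) of the 8 genes in 5 comparisons, with the standard error as bars that are often smaller than the symbol. Filled symbols passed the test. *Klf6* and *Klf10* sit near -1.9 in GCSF 0h, and *Klf2* is at 2.31 in GCSF-OHT 168h against GCSF 0h.

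*Klf2* (ENSMUSG00000055148, chromosome 8 from 72319033 to 72321656, plus strand) encodes a factor known from lymphocyte trafficking, endothelium and resting myeloid cells. Undifferentiated libraries had normalized counts of 1231, 1049 and 1055, and GCSF 0h libraries 400, 329 and 300. The groups did not overlap, and GCSF 0h was the lowest of the 28 GCSF groups. With OHT in GCSF the 1h libraries held 650, 770 and 851, an increase of 1.14 on the log2 scale (SE 0.15, limma adjusted p = 1.14e-10).

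In GCSF the mean of *Klf2* fell after 1h, to 469 at 4h, and it was at 952 ± 166 (SD, n = 3) at 12h. By 48h it had 1152 ± 50.02, and it was highest at 160h with 1921 ± 57.1, 5.60 times the mean of GCSF 0h. GCSF-OHT 168h libraries held 1674, 1743 and 1647, a log2 fold change of 2.31 against GCSF 0h (SE 0.15, limma adjusted p = 7.04e-29). In IL3 *Klf2* also moved up and down: means were 1594 at 1h, 754 at 2h, 1469 at 4h, 742 at 8h and, much later, 2735 ± 279 at 120h. The 120h libraries of both cytokines carry names of another series than all other libraries, so series and time cannot be told apart there. The IL3-OHT 168h libraries held 1752, 1586 and 1747, each above each undifferentiated library (0.61, SE 0.15, limma adjusted p = 1.83e-04), and without replicate 3 the value was 0.55 and no longer past the fold required. The 168h libraries of the cytokines overlapped in *Klf2*. Its replicates were the most uneven of the family, and IL3-OHT 104h held 3778, 2168 and 2014.

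*Klf6* (ENSMUSG00000000078, chromosome 13 from 5861482 to 5870394, plus strand), an immediate-early gene in many cells, had the highest count of the 9 in undifferentiated cells, while *Klf13* was above it in GCSF 0h and in both 168h groups. Undifferentiated libraries held 8076, 7802 and 8534, and IL3-OHT 1h libraries 16120, 16940 and 15190. The rise was 1.98-fold (log2 0.98, SE 0.05, limma adjusted p = 1.50e-32). The mean was 10345 ± 1100 at 2h, 8006 ± 171.3 at 3h, 5773 ± 200 at 8h and 3023 ± 146 at 80h, its lowest in IL3. At 168h it was 3555 ± 223, 2.29-fold under undifferentiated cells (limma adjusted p = 1.16e-41).

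In GCSF 0h *Klf6* held 2317, 2089 and 2150, and at 1h 6121, 6591 and 6852, a 2.98-fold rise (log2 1.58, SE 0.05, limma adjusted p = 6.04e-52). Even that peak was lower than each undifferentiated library. The mean settled at 3109 ± 162 by 4h and held between 2690 and 3336 from 8h to 112h. It then was 4787 ± 124 at 144h and 4775 ± 66.9 at 168h, 2.19-fold above GCSF 0h (limma adjusted p = 1.46e-39). At 168h the GCSF libraries (4841, 4707 and 4778) all lay above the IL3 libraries (3309, 3743 and 3612), the reverse of the order at 1h.

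*Klf7* (ENSMUSG00000025959, chromosome 1 from 64029447 to 64122282, minus strand), a factor close to KLF6 and best known from neurons, had the same 1h pulse. Undifferentiated libraries held 2357, 2188 and 2458, and IL3-OHT 1h libraries 4165, 4384 and 4006 (1.79-fold, limma adjusted p = 7.40e-24). By 2h the mean was 2469 ± 213, near its start. GCSF 0h libraries held 1628, 1542 and 1545, and GCSF-OHT 1h libraries 2885, 2859 and 2989 (1.85-fold, limma adjusted p = 3.99e-26). After a return to 1677 ± 104.7 at 3h, *Klf7* was called higher than GCSF 0h at 12h, 48h and 168h, and the 168h libraries held 3395, 3390 and 3285 (2.14-fold, limma adjusted p = 4.28e-34). In IL3 no tested time point after 1h was called, with 2990 ± 30.7 at 168h.

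*Klf3* (ENSMUSG00000029178, chromosome 5 from 64803388 to 64832901, plus strand) encodes the CtBP-recruiting repressor of the group. Its undifferentiated libraries held 3551, 3528 and 3493, higher than all other libraries of both courses. In IL3 the mean was 2602 ± 150 at 1h, 2414 ± 74.4 at 2h and 1491 ± 54.03 at 3h, and from 3h to 168h it stayed between 1181 and 1520. It was called lower at 4h, 12h, 48h and 168h, and 2.68-fold lower at 168h (limma adjusted p = 3.20e-50).

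In GCSF 0h *Klf3* was already at 1650, 1633 and 1467. After OHT in GCSF its means ran from 1303 ± 58.2 at 1h, its lowest, to 2231 ± 72.8 at 160h, its highest, a ratio of 1.71. The log2 fold change of GCSF-OHT 168h against GCSF 0h was 0.31 (95% interval 0.21 to 0.41), under the fold required. From 8h on, the mean of *Klf3* was higher in GCSF than in IL3 at each shared time point.

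*Klf9* (ENSMUSG00000033863, chromosome 19 from 23141226 to 23168134, plus strand), known as an early target of glucocorticoid and thyroid hormone receptors, peaked and then collapsed within 3 hours. Undifferentiated libraries held 5570, 5246 and 6100, IL3-OHT 1h libraries 9193, 8994 and 8189, and IL3-OHT 3h libraries 2013, 2045 and 2294. None of these groups overlap. The rise at 1h was 0.64 on the log2 scale (SE 0.07, limma adjusted p = 8.95e-14), or 0.57 without replicate 2 (under the fold required), and the step from 2h to 3h was -1.11 (SE 0.07, limma adjusted p = 1.77e-28). The lowest mean in IL3 was 1573 ± 215.2 at 8h. It then returned in part, to 3638 ± 257 at 136h and 3120 ± 274 at 168h (-0.85 against undifferentiated, limma adjusted p = 6.94e-22).

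In GCSF 0h the same gene held 3143, 3392 and 3267. GCSF-OHT 1h libraries had 4102, 4417 and 4427, and 3h libraries 1859, 1868 and 1800. The step from 2h to 3h was -0.73 (SE 0.07, limma adjusted p = 3.00e-16). *Klf9* was the only one of the 8 called lower in GCSF-OHT 168h than in GCSF 0h, with 1874, 1856 and 1735 (1.79-fold, limma adjusted p = 1.41e-21).

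*Klf10* (ENSMUSG00000037465, chromosome 15 from 38291463 to 38300706, minus strand), an early response gene of TGF-beta signalling, had no 1h rise in IL3: 5768, 5823 and 5849 in undifferentiated cells and 6177, 5604 and 5866 at 1h overlapped. Its means then went down through 4011 at 2h, 3033 at 4h and 1991 at 8h to 1444 ± 35.5 at 12h, 4.02-fold under undifferentiated cells (limma adjusted p = 1.68e-64). From 12h to 48h the means lay between 1444 and 1664, and later they were as high as 3635 ± 77.8 at 136h. IL3-OHT 168h libraries held 2454, 2436 and 2461 (2.37-fold under undifferentiated cells, limma adjusted p = 1.88e-44). In GCSF 0h *Klf10* was at 1611, 1494 and 1601, and no tested GCSF-OHT time point differed from that by the fold required. At GCSF-OHT 1h *Klf10* was higher by 0.47 (SE 0.05, limma adjusted p = 1.33e-13). Its GCSF means ran from 1469 ± 92.95 at 12h to 2296 ± 114.3 (SD, n = 2) at 152h.

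*Klf11* (ENSMUSG00000020653, chromosome 12 from 24651274 to 24662789, plus strand), the closest relative of KLF10, was the least abundant of the 8 per kilobase in undifferentiated cells. It had 947, 917 and 854 there, 1214, 1238 and 1244 at IL3-OHT 1h, and 287, 299 and 368 at 12h. The 12h value was 2.86-fold lower (limma adjusted p = 1.43e-40), while the 1h rise of 0.44 missed the fold required. At IL3-OHT 168h it held 590, 577 and 628 (-0.60, SE 0.07, limma adjusted p = 3.81e-13), close to the threshold of 0.58 and under it by edgeR (-0.58) and without replicate 1 (-0.56) or 2 (-0.56). In GCSF it ran between 504 ± 22.7 at 12h and 943 ± 64.7 at 1h, with no call at 1h, 4h, 12h, 48h or 168h.

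*Klf13* (ENSMUSG00000052040, chromosome 7 from 63886351 to 63938915, minus strand), known as a regulator of *Ccl5* in T cells, was the member with the smallest difference between GCSF 0h and undifferentiated cells: 5233, 5095 and 5321 in undifferentiated cells and 5806, 5756 and 5889 in GCSF 0h. In IL3 the 1h libraries had 7618, 7710 and 7837 (0.57, SE 0.06, just under the fold required). The 2h libraries held 7393, 7295 and 6617, and the 3h libraries 3931, 3955 and 4204. The step from 2h to 3h was -0.82 (SE 0.06, limma adjusted p = 2.41e-23). In GCSF the same step was -0.50 (SE 0.06), under the fold required, from 7359 ± 272 to 5223 ± 244. *Klf13* later reached 8569 ± 124 in GCSF at 160h, where the libraries (8493, 8713 and 8503) were above each IL3-OHT library of every time point.

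The gene models of *Klf3*, *Klf7* and *Klf13* overlap annotated transcripts on the other strand, and the handling of strand is not given in the sources used here, so reads of such pairs cannot be told apart.

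Later in IL3 most of the changes were decreases. At 4h, 4 of the 8 were called lower (*Klf3*, *Klf9*, *Klf10* and *Klf11*) and 0 higher, against 13.5% and 8.63% of all genes. At 12h, 5 were lower, with *Klf6* added, and 0 higher, against 17.5% and 11.2%. At 48h the same 5 were called, all of them lower, where 29.9% of all genes were called in either direction. At 168h, the same 5 were lower and *Klf2* was higher, against 15.2% and 10.2%. The median log2 fold change of the 8 was -1.06 at 48h and -0.73 at 168h, and that of all genes -0.02 and -0.03.

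In GCSF, OHT was followed by fewer calls. At 4h, *Klf9* was lower and 0 genes were higher, against 2.41% and 3.21% of all genes, and *Klf6* (0.51) was called as well without replicate 1 (0.59). At 12h, *Klf2* and *Klf7* were higher and 0 lower, against 7.56% and 3.88%, and at 48h the same pair was higher and 0 lower, against 7.67% and 4.95%. At 168h, 3 were higher (*Klf2*, *Klf6* and *Klf7*) and *Klf9* was lower, against 12.1% and 12.6%. The 168h count in IL3 is 6 of 8 and in GCSF 4 of 8, with 25.4% and 24.8% of all genes called in either direction.

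**Figure D3:**
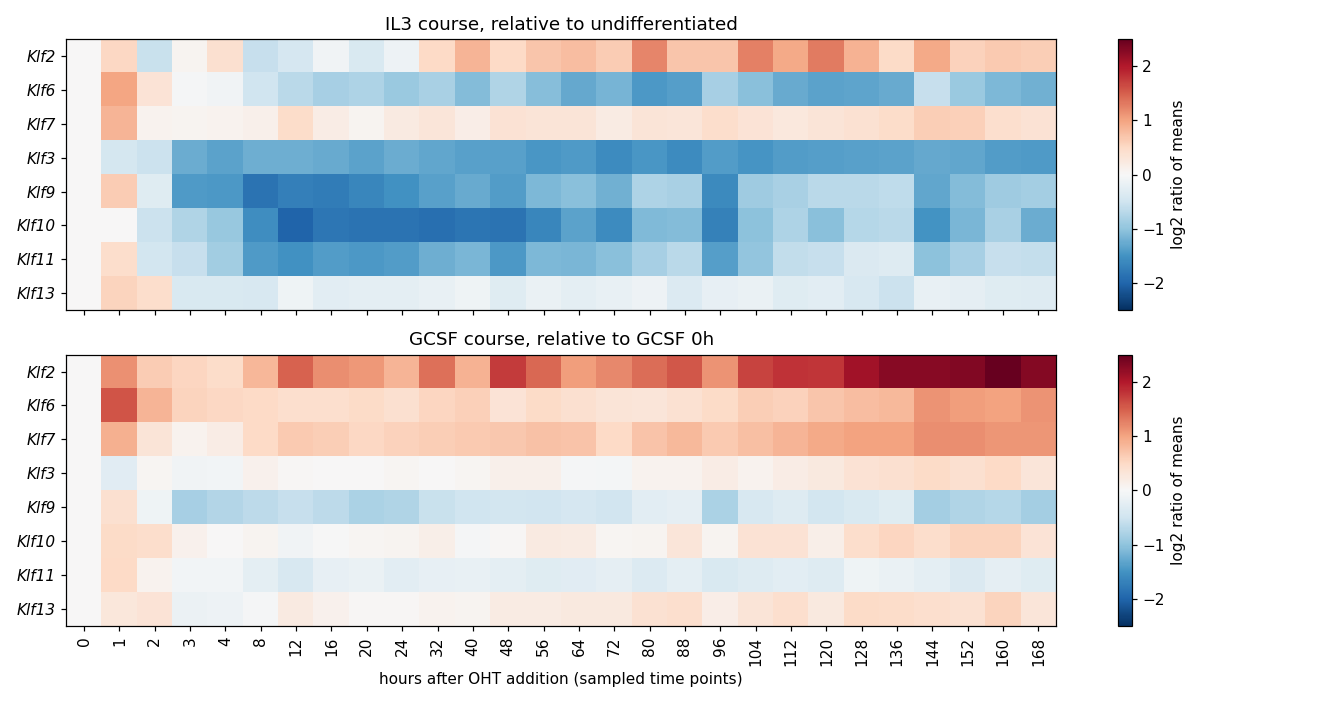
Log2 ratio of the mean at each time point to the mean at the start of the course, for the 8 genes (rows) at the sampled hours after OHT (columns), in IL3 relative to undifferentiated cells (top) and in GCSF relative to GCSF 0h (bottom). In IL3 *Klf3*, *Klf9*, *Klf10* and *Klf11* are blue from 3h, with *Klf10* at its lowest at 12h. In GCSF *Klf2* is the darkest red row and *Klf9* is blue from 3h.

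Any change over the course, tested with limma's moderated F and the fold required at 1 time point or more, was called for 7 of 8 genes in IL3 and for 4 of 8 in GCSF (*Klf2*, *Klf6*, *Klf7* and *Klf9*), against 69.7% and 47.7% of all genes. *Klf13* was the gene not called in IL3, with 0.57 at its farthest time point (1h). It was called under upper-quartile scaling (-0.59) and without replicate 3 (-0.60), where the farthest time point was a decrease, which made 8 of 8.

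Between the cytokines, averaged over the shared time points after OHT, 1 of the 8 was called higher in GCSF (*Klf13*, 0.59, SE 0.01, limma adjusted p = 3.49e-77) and 1 lower (*Klf2*, -0.72, SE 0.03, limma adjusted p = 2.31e-46), against 9.34% and 15.1% of all genes. *Klf13* lies just past the threshold of 0.58. *Klf10* (-0.43), *Klf6* (-0.43), *Klf9* (-0.22), *Klf7* (-0.17), *Klf3* (0.25) and *Klf11* (0.24) differed by less than the fold required.

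Whether the change after OHT differed between the cytokines was tested as the difference of the 2 changes (GCSF-OHT minus GCSF 0h, less IL3-OHT minus undifferentiated). At 1h, 2 of the 8 had a larger rise in GCSF and 0 a smaller one, against 1.58% and 1.23% of all genes: *Klf2* (0.62, SE 0.21, limma adjusted p = 0.0421) and *Klf6* (0.59, SE 0.07, limma adjusted p = 3.32e-10). Without the libraries of replicate 3 the values were 0.52 and 0.47 and 0 genes were called (limma), and without those of replicate 2 *Klf2* had an adjusted p of 0.268 (limma).

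At 168h the difference was called for 6 of 8 genes, all positive, against 14.5% of all genes positive and 11.3% negative. It was 2.32 for *Klf6* (SE 0.07, limma adjusted p = 5.86e-54), 1.73 for *Klf3* (SE 0.07), 1.69 for *Klf2* (SE 0.21), 1.60 for *Klf10* (SE 0.07), 0.74 for *Klf7* (SE 0.08) and 0.63 for *Klf13* (SE 0.08). The starts of the courses enter this value. *Klf6*, *Klf3*, *Klf2* and *Klf10* were already 2.23-fold to 3.72-fold lower in GCSF 0h than in undifferentiated cells, while *Klf2* at 168h overlapped between the cytokines. *Klf9* had no difference that could be detected (0.01, 95% interval -0.18 to 0.20).

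Between consecutive time points, 16 of 200 gene and step combinations of the 8 genes were called in IL3, 14 of them at steps up to 8h, and 7 in GCSF over 27 steps of the 8 genes, 5 of them up to 8h. Over all genes 3.65% of such combinations were called in IL3 and 1.81% in GCSF, and at the steps up to 8h these shares were 7.92% and 3.90%. In IL3 the step from 1h to 2h had 5 decreases (*Klf2*, *Klf6*, *Klf7*, *Klf9* and *Klf11*), and 8.83% of all genes decreased at it. The calls after 8h were all of *Klf2*: in IL3 at the step that ended at 32h (0.62) and the one that ended at 80h (0.60), and in GCSF at those that ended at 12h (0.63) and 48h (0.87). The first 3 of these were lost without replicate 1, without replicate 1 or 2, and without replicate 2. Of the early IL3 calls, *Klf6* from 1h to 2h was at -0.53 without replicate 2, *Klf2* from 2h to 3h at 0.37 without replicate 3, and *Klf10* from 4h to 8h at -0.57 without replicate 2, none of them called then. The largest steps, named after their values were seen, were the first hour for *Klf6* in both cytokines, 2h to 3h for *Klf9* and *Klf13* in both, and 4h to 8h for *Klf10* in IL3 (-0.61).

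At IL3-OHT 96h and 144h, 8 h after fresh OHT and medium, *Klf9*, *Klf10* and *Klf11* lay below their neighbours, while *Klf3* (0.13 and 0.04) and *Klf13* (0.06 and 0.20) did not. *Klf9* libraries held 1858, 1918 and 1807 at 96h, between 3218 ± 141.2 at 88h and 3046 ± 251 at 104h, and none of these groups overlap. Against the mean of the neighbours, 2 of the 8 were called lower at 96h and 0 higher, where 8.17% and 9.36% of all genes were: *Klf9* (-0.75, SE 0.06, limma adjusted p = 2.33e-22) and *Klf10* (-0.63, SE 0.04, limma adjusted p = 1.75e-25). *Klf11* was at -0.55. At 144h *Klf10* was called lower (-0.59, SE 0.04) and 0 were higher, against 6.76% and 8.59%. Without replicate 3 it was at -0.56 and 0 were called (limma). At that time *Klf9* was at -0.44.

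*Klf6* lay above its neighbours at both time points, by 0.38 at 96h and 0.53 at 144h, under the fold required. Its libraries at 144h (5665, 5726 and 5072) were all above those of 136h (3355, 3553 and 3254) and 152h (4251, 4473 and 4114). In GCSF 0 of the 8 were called at 96h or at 144h, where 4.65% and 1.85% of all genes were (limma). At an unadjusted p under 0.05 (limma), GCSF-OHT 96h had 5 of the 8 and 144h had 3. The share of all genes at this looser threshold was not computed, so these 2 counts have no comparison. By edgeR 0 of the 8 were called at each. The values of *Klf9* there were -0.47 and -0.33. After the renewal at 40h, *Klf9* in IL3 had 2343 ± 22.6 at 40h, then 2150 ± 15.1 at 48h and later 2576 ± 171.9 at 56h. The part of renewal, plate or harvest in these values was not tested.

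**Figure D4:**
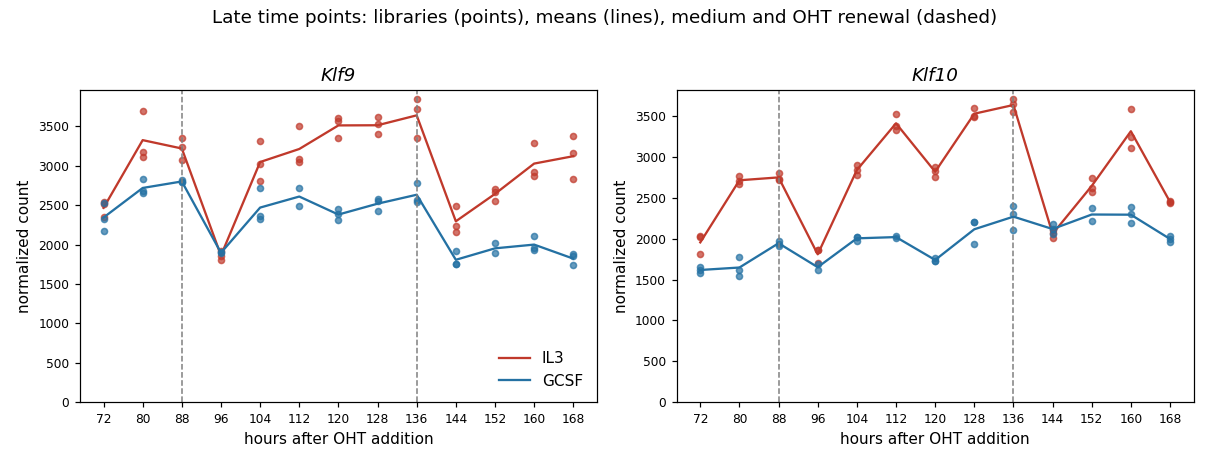
Normalized counts of *Klf9* (left) and *Klf10* (right) from 72h to 168h after OHT, with IL3 in red and GCSF in blue, points for libraries, lines for means and dashed lines at the renewals of medium and OHT. At 96h *Klf9* had means of 1861 in IL3 and 1895 in GCSF, and *Klf10* 1809 in IL3.

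Among the members, *Klf9*, *Klf10* and *Klf11* had the closest courses in IL3. Over the 26 IL3 groups used, Pearson's r of the mean log2 values was 0.94 between *Klf10* and *Klf11*, 0.91 between *Klf9* and *Klf11* and 0.85 between *Klf9* and *Klf10*. The values of *Klf13* with these 3 were 0.60, 0.35 and 0.39, under its values with *Klf3* (0.69) and *Klf6* (0.68), and *Klf3* and *Klf6* had 0.78. Over the 28 GCSF groups the pairs *Klf10* and *Klf11*, *Klf9* and *Klf11*, and *Klf9* and *Klf10* had 0.22, 0.64 and 0.21, and the highest value was that of *Klf2* and *Klf7* (0.93), a pair with 0.38 in IL3. These points are successive times of a course and share its drift, so the values are descriptions without a test.

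Of 10647 genes with a mean of at least 50, those most like each member over the 54 groups were *Ier3* (r = 0.89) and the pseudogene *BC021767* (0.90) for *Klf2*, *Slc20a1* and *C920009B18Rik* (both 0.91) for *Klf6*, and *Mcl1* (0.86) and *Tiparp* (0.84) for *Klf7*. They were *Ssc4d* and *L3mbtl1* (both 0.87) for *Klf3*, *Pla2g6* and *Wwtr1* (both 0.89) for *Klf9*, *Carhsp1* (0.95) and *Ndel1* (0.93) for *Klf10*, *Camk2n2* (0.85) and *Ints12* (0.84) for *Klf11*, and *Ptpre* and *Arl11* (both 0.92) for *Klf13*. Each r uses the group means on the log2 scale.

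Of the other 8 KLF genes, 6 passed the filter and 2, *Klf14* and *Klf17*, did not. None of the 6 was called between the cytokines, where 9.34% of all genes were higher in GCSF and 15.1% lower. The median of the 6 was -0.03. *Klf5*, a factor of proliferating cells, held 1830 ± 51.5 in undifferentiated cells, 659 ± 49.4 in GCSF 0h, 669 ± 73.1 in IL3-OHT 168h and 640 ± 60.7 in GCSF-OHT 168h. *Klf16* went from 1151 ± 41.2 to 535 ± 11.3, 590 ± 53.6 and 434 ± 32.0 in the same order. Both were called lower in GCSF 0h and in IL3-OHT 168h. *Klf8*, *Klf12* and *Klf15* had group means under 4 in these 4 groups. The 1 call of the list at GCSF-OHT 168h, *Klf15* lower, lies at this floor. Between the cytokines *Klf16* (-0.29), *Klf12* (0.18), *Klf8* (-0.18) and *Klf1* (-0.03) were within the fold required.

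The SP genes encode relatives that bind the same GC-rich sequences, and 7 of 9 were tested. *Sp3* was called higher in GCSF than in IL3 (0.62, SE 0.01), and it rose in both courses, from 1912 ± 127.3 in undifferentiated cells to 3943 ± 187.7 in IL3-OHT 168h and from 3815 ± 120.9 in GCSF 0h to 6099 ± 172.4 in GCSF-OHT 168h. *Sp4* (0.51), *Sp2* (0.39) and *Sp6* (0.32) were under the fold required between the cytokines. Against the start, 1 of the 7 was higher and 2 lower at IL3-OHT 168h (all genes 10.2% and 15.2%), and 2 were higher and 1 lower at GCSF-OHT 168h (all genes 12.1% and 12.6%).

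The 10 partner genes listed encode SIN3, CtBP, histone deacetylase and acetyltransferase proteins. Between the cytokines 0 of 10 were called, where 9.34% of all genes were higher in GCSF and 15.1% lower. The farthest from 0 were *Sin3a* at 0.36, *Ctbp1* at 0.35, *Hdac3* at -0.35 and *Hdac1* at 0.33. In GCSF 0h *Kat2b* was higher (0.72) and *Sin3b* lower (-0.75), where 13.0% and 20.7% of all genes were. At IL3-OHT 168h *Kat2b* (0.75) and *Sin3a* (0.70) were higher and 0 lower (all genes 10.2% and 15.2%), and at GCSF-OHT 168h *Ep300* (0.61) was higher and 0 lower (all genes 12.1% and 12.6%). All 10 had adjusted p-values under 0.05 between the cytokines (limma), so it is the size that fell short.

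Of 8 genes that regulate KLF genes or proteins, *Mef2c* was called higher in GCSF (0.77, SE 0.02) and *Mef2d* lower (-0.59, SE 0.02), both MEF2 factors known to act on the *Klf2* promoter. *Mef2d* went from 2868 ± 138.5 in undifferentiated cells to 5989 ± 188.8 in IL3-OHT 168h, and *Mef2c* was at 459 ± 19.3 in GCSF-OHT 168h against 200.6 ± 8.67 in IL3-OHT 168h. *Smurf1* (-0.43) and *Wwp1* (0.27), which encode ubiquitin ligases, were under the fold required. At 168h 2 of the 8 were higher and 1 lower in IL3 (all genes 10.2% and 15.2%), and 1 was higher and 0 lower in GCSF (all genes 12.1% and 12.6%).

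Genes described as KLF targets in other cells were 11 in number and all tested. Between the cytokines 7 were called lower in GCSF and 2 higher, against 15.1% and 9.34% of all genes. Their median was -0.81, and that of all genes -0.06. *Maob* was higher (1.59, SE 0.05), and *Cd14* (-1.27, SE 0.01), *Itgb7* (-1.21, SE 0.05) and *Cdkn1a* (-0.93, SE 0.01) were lower. *Ccl5* (0.62) and *S1pr1* (-0.81) also passed, but no library of them exceeded a normalized count of 12.1. In IL3-OHT 168h 1 of the 11 was higher and 3 lower, against 10.2% and 15.2% of all genes, and in GCSF-OHT 168h 5 were higher and 1 lower, against 12.1% and 12.6%. *Cd14*, a lipopolysaccharide co-receptor, held 7861 ± 52.4 in undifferentiated cells, 770 ± 57.6 in GCSF 0h, 6392 ± 366 in IL3-OHT 168h and 3303 ± 223 in GCSF-OHT 168h. *Cdkn1a*, the cell cycle inhibitor p21, was at 27010.1 ± 933 in IL3-OHT 168h and 8720 ± 635 in GCSF-OHT 168h. Whether any of these changes depends on a Kruppel-like factor was not tested.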

How the data were processed

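PolyA RNA of the PUER libraries was sequenced by the authors and quantified with Salmon against GRCm38. The authors divided each library's counts by its DESeq2 size factor, so the deposited values are a normalized signal, the normalized counts of 36255 genes. How transcripts were brought to genes is not given in the sources used here. Each library's values are multiples of a single step, the worth of 1 read, for 100% of those above 0 (relative tolerance 1e-06), so whole reads could be recovered for the alternatives. The titles of the GCSF 0h libraries name OHT, while their descriptions place them before it, so they are treated here as OHT-free cells.

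Tests used limma 3.58.1 under R 4.3.3 on log2(normalized count + 1), with 1 mean per group in lmFit and a trend in eBayes. Fold changes are on that scale. The fit held 17414 genes, those that reached a normalized count of 5 in some library, without IL3-OHT 96h and 144h. These 2 groups were compared with their neighbours in a fit of all libraries (17439 genes). P-values were adjusted by Benjamini-Hochberg over all genes per comparison, and a call needed a log2 fold change beyond 0.58 in either direction with an adjusted p below 0.05. Replicates are separate cultures of a single line. Alternatives were edgeR 4.0.16, DESeq2 1.42.0, other filters, pseudocounts and scalings, leaving out replicates, and a replicate block. The tests were tried on simulated data first.

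The members, the gene lists and the tests were chosen with earlier results of these data known. All members are named, with the 2 genes most like each (Pearson's r, mean of at least 50) and up to 4 genes of each list with the largest difference between the cytokines. Coordinates are from GENCODE M21. Figures were drawn with matplotlib 3.10.9.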

Additional observations from a re-analysis of the deposited data

Results flagged for a closer look

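The change after OHT differed between the cytokines (GCSF minus IL3, tested as an interaction in limma) for 2 of the 8 detected genes at 1h and for 6 at 168h. All of these differences were positive. Over all genes 1.58% were positive and 1.23% negative at 1h, and 14.5% and 11.3% at 168h. At 1h the differences were 0.62 for *Klf2* and 0.59 for *Klf6* on the log2 scale, and 0 genes were called without replicate 3. At 168h the differences were 1.73 for *Klf3*, 0.63 for *Klf13*, 1.69 for *Klf2*, 0.74 for *Klf7*, 2.32 for *Klf6* and 1.60 for *Klf10*. The starts of the courses enter these values, and *Klf6*, *Klf3*, *Klf2* and *Klf10* were already lower in GCSF 0h than in undifferentiated cells. The OHT dose (100 nM in GCSF, 200 nM in IL3) and the 48 h in GCSF before OHT differed along with the cytokine and cannot be told apart from it. Groups held 2 or 3 libraries, so Dixon's test for a single outlying library was not run.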

How the results depend on the processing

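For the 8 detected genes, their log2 fold changes were recomputed under up to 11 alternatives. Of 1739 recomputed values of comparisons with a direction, 1697 kept their sign and their call, 19 lost the call, 9 gained it and 14 changed sign. The counts of members called moved by over 1.5 times in 3 comparisons. The interaction at 1h gave 2 calls and 1 with no filter or by edgeR (*Klf2* lost, adjusted p = 0.0574 and 0.0571), 1 without replicate 2 and 0 without replicate 3, so 0 to 2 over the replicates left out. For IL3-OHT 144h the 1 call became 0 under upper-quartile scaling (*Klf10*, -0.56) and ranged from 0 to 1 with a replicate left out (limma). For GCSF-OHT 4h it ranged from 1 to 2. Leaving out the number 1, 2 or 3 kept both libraries where a group had 2. The 14 changes of sign were all in values that were not called, and none of these was farther from 0 than 0.063 after the change. Among them is *Klf9* in the interaction at 168h, with -0.011 by edgeR and -0.020 under upper-quartile scaling. Any change over a course has no direction, and the value at the farthest time point can come from another time: for *Klf13* in IL3 it went from 0.57 to -0.59 (upper-quartile scaling) and -0.60 (without replicate 3), both called. In GCSF *Klf11* (0.63, without replicate 1) and *Klf10* (0.60, without replicate 3) were called. The cause of these differences was not tested. Replicate numbers did not pair the libraries: the mean correlation of deviations was 3.76e-04 for libraries of the same number, and 67 libraries correlated best with their own number. The fit with a replicate block changed no call and gave, for example, 5 members called in GCSF 0h, 6 at IL3-OHT 168h, 4 at GCSF-OHT 168h, 16 IL3 steps and 7 GCSF steps. DESeq2 was not planned for the neighbour comparisons. The depth limits *Klf4* and the low genes of the lists.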
